A study of Mus musculus with 4 samples.

Results

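Axon guidance ligands and receptors were followed in cerebella taken on the day of birth (postnatal day 0), where RNA of Smarca5 cKO mice was set against RNA of wild-type mice. Smarca5 encodes Snf2h, an ATPase that slides nucleosomes, and cKO stands for its conditional knockout. All genes were taken whose annotated symbol, or its current name, marks a semaphorin of classes 3 to 7, a plexin, a neuropilin, an Eph receptor, an ephrin, a Slit, a Robo, a netrin, an Unc5 receptor or Dcc. This name rule found 67 of the 19875 genes measured. One of these, Plxna4os1, is annotated as a non-coding RNA from the strand opposite Plxna4, and it is described apart. The other 66 genes, read by 111 of the 38880 features, encode 33 ligands and 33 receptors. No feature was found for Ntn5, Plxnd1 or Sema3g.

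There were 4 arrays, and every array carried RNA of both genotypes in different dyes. All mice were C57Bl/6, and each genotype was represented by 3 RNA samples. The cKO RNA was labelled with Cy5 on replicates 1 and 3 and with Cy3 on replicates 2 and 4. Replicates 3 and 4 share their cKO RNA, and replicates 1 and 4 share their wild-type RNA. The Cre driver of the deletion, the alleles carried by the wild-type mice and any pooling of animals remain not given in the sources used here. In whole tissue, fewer cells of a type and less RNA per cell cannot be told apart.

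Axon guidance cues are secreted or membrane-bound proteins that steer growing axons and migrating neurons by attracting or repelling them. Semaphorins signal through plexins, and the secreted class 3 members mostly need a neuropilin as the binding partner. Ephrins are themselves membrane-bound, so Eph receptors read them at cell contacts and signals can run in both directions. Slits repel through Robo receptors, and netrins attract through Dcc or repel through Unc5 receptors. In the developing cerebellum these systems are known for placing granule cells, guiding precerebellar neurons and keeping the border to the brainstem.

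Values below are given on the log2 scale, as cKO relative to wild type after centring at the median of its array. A value of 1 is a doubling, if the deposited log base is 2, as taken here. The direction is likely rather than stated: the labels list cKO in channel 2 on every array. Features with ratios beyond 5 in size on every array numbered 49, and all 49 changed sign with the dye. Their medians were -7.02, 7.07, -6.39 and 6.6 on replicates 1 to 4. Ratios of a fixed dye over the other would have kept their sign. Wild type over cKO would change sign with the dye as well, so these features do not show which genotype is the numerator. The feature named Smarca5 was deposited at -0.35, -1.16, -1.42 and -0.77. A second feature, under a clone name now assigned to Smarca5, stood at 0.02, 0.34, 0.11 and 0.45. Whether these features lie in the deleted part was not established, so they check the genotype only in part. A feature named for the pseudogene Smarca5-ps read -1.1, -1.59, -1.21 and -1.95, below 0 on all 4 arrays, with an adjusted limma p of 1 (0.00926 unadjusted). Whether it also detects Smarca5 RNA was not tested. On replicate 1, 14 of 16 measured Hox and other genes of the hindbrain and spinal cord lay above 0, and their median was 2.81. That median was -0.19, -0.415 and -0.36 on replicates 2 to 4.

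No guidance gene passed the test. Limma called 0 of 66 members at a Benjamini-Hochberg adjusted p under 0.05, and 0 (0%) of the 19875 genes. Every adjusted p was 1. At an unadjusted p under 0.05 the count was 1 of 66 members (1.52%), against 311 of all genes (1.56%), so the share of members was near the background. Ratios above 0 on all 4 arrays were found in 2 members (3.03%), where 5.92% of all genes did so. Ratios below 0 on all 4 arrays were found in 2 members as well (3.03%), against 5.72% of all genes. Both shares lie under those of all genes, and no share here stands out.

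The typical member had a small mean and a wide spread between arrays. The mean over 4 arrays was under 0.25 in size in 54 of 66 members. Its range ran from -0.75 (Epha2) to 0.50 (Plxna1). The SD over arrays had a median of 0.40 over members and 0.39 over all genes, and it exceeded the size of the mean in 62 of 66 members. Exceptions were Epha2, Ephb2, Plxna1 and Unc5d. The members' median ratio was 0.025, -0.0475, 0.0225 and 0.11 on replicates 1 to 4. The median fitted ratio was -0.03, beside -0.004 for all genes, and 29 members had a fitted ratio above 0 and 37 below.

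The fitted ratio weights replicates 1 to 3 equally and gives replicate 4 no weight. This follows from a correlation of 0.5 assumed between arrays that share an RNA sample, as replicate 4 shares both of its samples. Over all genes the observed correlation was 0.01 between replicates 1 and 4. Between replicates 3 and 4 it was -0.04, so both lay well under 0.5. The p-values and intervals given here rest on the assumed value. With arrays fitted as independent, 994 rather than 311 genes had an unadjusted limma p under 0.05. In 10 members the sign of the fitted ratio differs from that of the plain mean. The 95% interval of the fitted ratio had a median half-width of 0.69 over members, and 0.69 over all genes. In 47 of 66 members (71.2%) the whole interval lay between -1 and 1, as it did in 60.9% of all genes. For those 47 members the interval holds no change of 2-fold or more. For the other 19 the interval reaches beyond 2-fold in at least 1 direction.

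**Figure D1:**
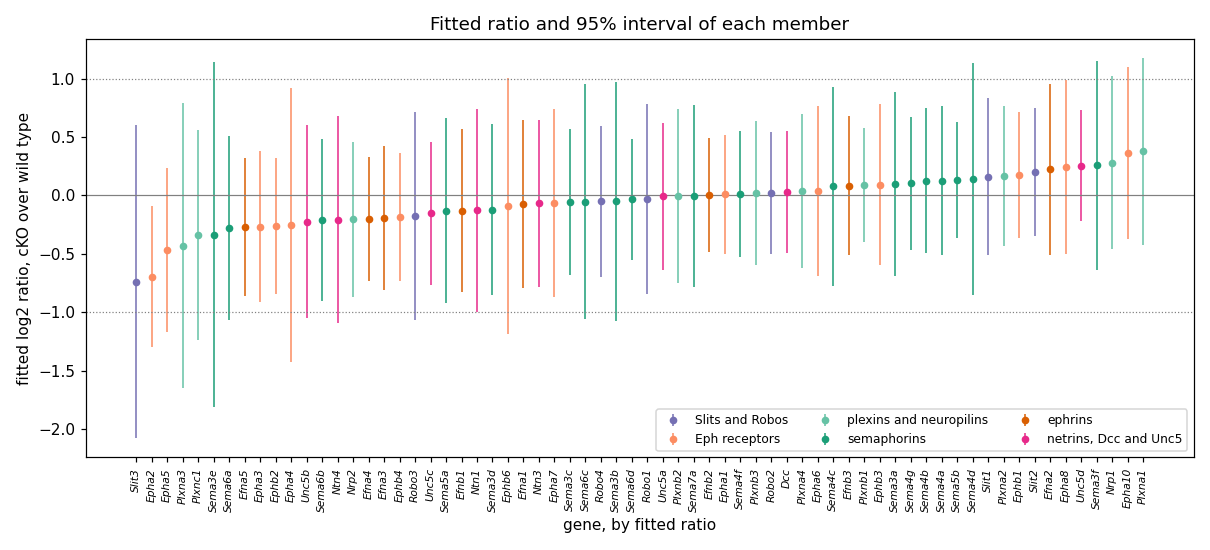
Fitted log2 ratio of cKO over wild type (y axis) of the 66 ligand and receptor genes, ordered by that ratio (x axis), with bars for the 95% interval of the limma fit and colours for the system; dotted lines mark 1 and -1. Of the 66 intervals, that of Epha2, from -1.30 to -0.09, is the only one that does not reach 0.

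In all, 4 members kept 1 sign across the arrays: Epha2 and Efna5 below 0, and Unc5d and Sema5b above 0. Epha2 encodes a receptor of ephrin-A ligands. Its single feature read -0.85, -0.18, -1.06 and -0.92 on replicates 1 to 4, with a mean of -0.75 ± 0.39 (SD, n = 4 arrays). Limma fitted a ratio of -0.70 ± 0.245 (SE), a level 1.62-fold lower in the mutant. Its unadjusted p was 0.0306 by limma, and the Benjamini-Hochberg adjusted p was 1. Replicate 2 lay close to 0, and the other 3 arrays lay near -1. The ratio was -0.955 without replicate 2 and -0.58 without replicate 3.

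Efna5, which encodes an ephrin-A that repels axons of several brain maps, read -0.09, -0.71, -0.015 and -0.25. Its mean was -0.27 ± 0.31 (SD, n = 4 arrays), and replicate 2 alone lay far from 0. The ratio was -0.05 without replicate 2. The 2 features of Efna5 had opposite means, -0.66 and 0.13, so the sign depends on which feature is read. Unc5d, a repulsive netrin receptor gene, had the tightest values, at 0.32, 0.155, 0.295 and 0.34 (mean 0.28 ± 0.08, SD, n = 4 arrays). Both of its features had positive means, 0.18 under its own symbol and 0.375 under a clone name. On replicate 2 these features read -0.37 and 0.68, so only their average kept 1 sign with a small spread. The fitted ratio of Unc5d, 0.255 ± 0.19 (SE), had a 95% interval from -0.22 to 0.73. With the feature of its own symbol alone the ratio was 0.08. Sema5b, a transmembrane semaphorin, read 0.32 on replicate 1 and 0.045, 0.025 and 0.055 on replicates 2 to 4, so 3 of its 4 values lay next to 0. Its features also differed, at 0.24 and -0.015.

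The sequences before the start sites of these genes, the members with 1 sign on every array, are shown as a description. The shares of such members lay under those of all genes, so the choice marks none of them as changed. They were read from RefSeq (GRCm38.p6) and give the 200 bases before the annotated start, 5′ to 3′ on the gene's strand, for the 3 genes with an entry. Capitals mark GGGCGG or its reverse complement CCGCCC, the GC box bound by the Sp1 family. Overlaps were allowed, and no other motif was searched.
Epha2, chr4:141301021-141301220, plus strand: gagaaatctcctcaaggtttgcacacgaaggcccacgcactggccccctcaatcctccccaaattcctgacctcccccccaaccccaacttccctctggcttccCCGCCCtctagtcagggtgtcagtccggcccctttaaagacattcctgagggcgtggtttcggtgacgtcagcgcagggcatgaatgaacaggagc
Efna5, chr17:62881318-62881517, minus strand: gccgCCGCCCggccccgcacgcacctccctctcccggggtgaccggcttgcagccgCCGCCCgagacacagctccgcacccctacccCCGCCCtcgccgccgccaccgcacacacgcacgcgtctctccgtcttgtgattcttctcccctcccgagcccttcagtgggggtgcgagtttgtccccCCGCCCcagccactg
Sema5b, chr16:35541162-35541361, plus strand: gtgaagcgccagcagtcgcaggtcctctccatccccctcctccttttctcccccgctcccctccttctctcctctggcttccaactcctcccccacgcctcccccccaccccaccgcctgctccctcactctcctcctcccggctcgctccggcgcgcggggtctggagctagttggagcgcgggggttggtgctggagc

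The Epha2 window held 1 GC box and 8 CpG dinucleotides, that of Efna5 4 and 23, and that of Sema5b 0 and 13. Over windows of 250 bases before the start, 56 members had an entry, and 41 of them (73.2%) held a GC box on either strand. Among 17492 protein-coding genes with such a window the share was 42.7%. The median number of CpG dinucleotides was 16.5 in members and 10 in all these genes. Members ranged from 2 (Robo4, Sema3a, Sema4a and Sema4d) to 46 (Epha8). These counts describe the windows alone, and no methylation or binding was measured.

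Semaphorin ligands lay near 0 as a group. Of 19 genes, 12 had a mean above 0 and 7 below, the median mean was 0.05, and 0 were called by limma at an adjusted p under 0.05 (0 at an unadjusted p under 0.05). The medians by array were 0.07, -0.17, 0.07 and 0.21, so replicate 2 was the low array. The lowest mean belonged to Sema6a, a transmembrane semaphorin that helps granule cells leave the outer layer, with 0.33, -1.12, -0.05 and 0.29 on replicates 1 to 4. Only replicate 2 was far below 0, and the mean was -0.14 ± 0.68 (SD, n = 4 arrays). Its 3 features had means of -0.39, -0.14 and 0.11. The highest mean was that of Sema6c, another transmembrane member, at -0.17, -0.23, 0.25 and 1.07. Its mean of 0.23 ± 0.60 (SD, n = 4 arrays) rested on replicate 4, and the fitted ratio, which gives that array no weight, was -0.05. All 3 of its features had means above 0.

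Sema3a, a secreted repellent that acts through neuropilin-1, read 0.94, -0.40, -0.24 and 0.14 (mean 0.11 ± 0.60, SD, n = 4 arrays). The other secreted members ranged from -0.04 (Sema3d) to 0.08 (Sema3b) in mean, with Sema3e at -0.035, Sema3c at -0.02 and Sema3f at 0.07. Sema3e had the widest spread among them, at 0.205, 0.13, -1.34 and 0.865. In Sema7a, a GPI-anchored semaphorin, the values were 0.05, -0.015, -0.05 and 0.745, so replicate 4 alone stood apart. Its features had means of -0.005 and 0.37. Features also differed in sign in Sema3d (-0.42 and 0.34), Sema3f (0.14 and -0.01) and Sema5a (0.08 and -0.11). Among class 4 genes the means lay between 0.02 (Sema4b) and 0.215 (Sema4d). All 6 were above 0, where 49.6% of all genes had a mean above 0. Without replicate 3 all 6 fitted ratios were below 0, from -0.16 (Sema4c) to -0.04 (Sema4b). The class 4 count was not tested. Sema4d, a ligand of plexin-B1, ranged from -1.02 on replicate 2 to 0.79 on replicate 1, and Sema4c from -0.77 on replicate 2 to 0.94 on replicate 3. Sema4f had a mean of 0.03, Sema4g of 0.05 and Sema4a of 0.06. The remaining transmembrane genes had means of -0.055 (Sema6b), -0.05 (Sema6d) and -0.01 (Sema5a).

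Plexins and neuropilins, the receptors of semaphorins, gave 6 means above 0 and 4 below among 10 genes. None was called by limma at an adjusted p under 0.05, or reached an unadjusted p under 0.05. Plxna1, which pairs with neuropilins for class 3 semaphorins, had the highest mean of all members. It read 0.43, 0.74, -0.04 and 0.87, with a mean of 0.50 ± 0.40 (SD, n = 4 arrays), and 3 of 4 arrays lay clearly above 0. Its fitted ratio was 0.38, with a 95% interval from -0.42 to 1.18. It was 0.195 without replicate 2 and 0.69 without replicate 3. With the dye-flip arrays turned, this ratio was -0.12. Treating the 4 arrays as independent gave 0.50, with an unadjusted limma p of 0.0436. Plxna3 had the lowest mean of the group, at -1.88, 0.19, 0.40 and -0.24, and its mean of -0.38 ± 1.03 (SD, n = 4 arrays) came from replicate 1. Plxnc1, the receptor of Sema7a, also lay lowest on replicate 1, at -1.19, 0.385, -0.205 and -0.23.

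Plxna2, the receptor of Sema6a in granule cells, read 0.44, 0.01, 0.055 and -0.14 (mean 0.09 ± 0.25, SD, n = 4 arrays). Plxnb2, a receptor of class 4 semaphorins needed by granule cell progenitors, read -0.31, -0.10, 0.39 and -0.56, a mean of -0.145 ± 0.40 (SD, n = 4 arrays). Both spans include 0. Nrp1 had values of 0.195, -0.10, 0.75 and -0.06, and its 2 features had means of 0.055 and 0.34. Nrp2, with 5 features, read -0.47, -0.09, -0.06 and 0.26, while the means of those features ran from -0.59 to 0.30. The remaining plexins had means of 0.05 (Plxnb1), 0.08 (Plxnb3) and 0.115 (Plxna4). The antisense gene Plxna4os1 had 0.21, -0.25, -0.43 and -0.04, a mean of -0.13 ± 0.28 (SD, n = 4 arrays), beside 0.59, -0.52, 0.05 and 0.35 for Plxna4. Whether the array's features tell the strands apart is not given in the sources used here.

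**Figure D2:**
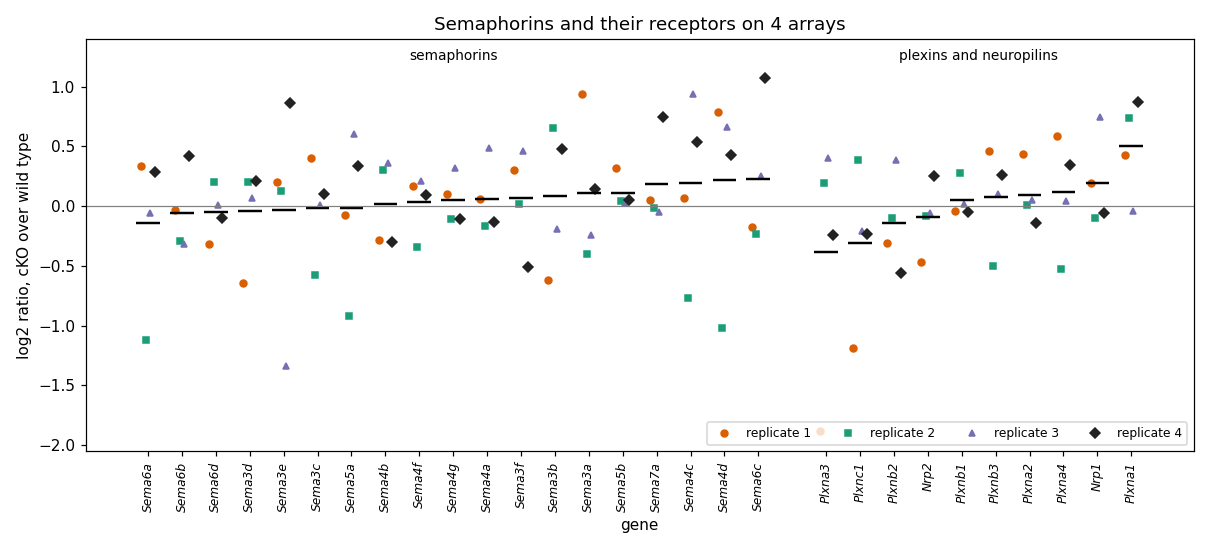
Log2 ratio of cKO over wild type (y axis) for each semaphorin, plexin and neuropilin gene (x axis), with 1 point per array (shape and colour by replicate) and a bar for the mean of 4 arrays. The arrays scatter on both sides of 0 in nearly all genes, and Plxna3 reaches from -1.88 on replicate 1 to 0.40 on replicate 3.

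Ephrins, the ligands of Eph receptors, had the smallest spread of the 6 groups, with a median SD over arrays of 0.32. All 8 had a 95% interval of the fitted ratio between -1 and 1. The medians of the 8 genes by array stayed between -0.07 and 0.04. Apart from Efna5, the GPI-anchored ephrin-A genes had means of -0.23 (Efna3), -0.12 (Efna4), 0.07 (Efna1) and 0.11 (Efna2). The 2 features of Efna4 had means of 0.01 and -0.255. Efnb1, a transmembrane ephrin, read -0.81, 0.13, 0.29 and -0.09, with replicate 1 the low array. Efnb2, which marks arteries as well as neurons, was flat at 0.07, 0.06, -0.12 and 0.11 (mean 0.03 ± 0.10, SD, n = 4 arrays). Efnb3 had the highest mean of the ephrins, 0.18 ± 0.22 (SD, n = 4 arrays), from -0.08, 0.17, 0.16 and 0.46. Limma called 0 of the 8 genes at an adjusted p under 0.05 (0 at an unadjusted p under 0.05).

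Eph receptors held the lowest mean of all members. Of 14 genes, 9 had a mean below 0 and 5 above, the median mean was -0.06, and limma called 0 (1, Epha2, at an unadjusted p under 0.05). Among the EphA genes 7 of 9 had a mean below 0 and 5 of 9 a fitted ratio below 0, where 49.6% of all genes had a mean above 0. With the dye-flip arrays turned, against the direction taken here, 4 of 9 EphA genes had a mean below 0 and 5 above. The EphA counts were not tested. Next to Epha2 stood Epha5, a receptor of ephrin-A, with -1.135, -0.325, 0.065 and -0.385 (mean -0.445 ± 0.50, SD, n = 4 arrays). Its features gave -0.78 under its own symbol and -0.11 under another name. At the other end, Epha10, an Eph receptor lacking kinase activity, had -0.10, 0.24, 0.94 and 0.85 from 1 feature annotated under a clone name. Its mean was 0.48 ± 0.50 (SD, n = 4 arrays).

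Epha4, which binds ephrins of both classes and is known for repulsive guidance, had a single feature that read -0.29, 0.71, -1.18 and 0.15. Its 2 arrays with cKO in Cy5 lay below 0 and its 2 arrays with cKO in Cy3 above 0. Ephb2, a receptor of ephrin-B, read -0.22, -0.57, 0.01 and -0.40 (mean -0.30 ± 0.25, SD, n = 4 arrays). Of its arrays, 3 lay below 0 and replicate 3 lay at 0, and its 3 features had means of -0.555, -0.335 and 0.0025. The other EphA genes had means between -0.14 (Epha7) and 0.09 (Epha8), with Epha3 at -0.14, Epha1 at -0.03 and Epha6 at -0.025. Among EphB genes the others stood at -0.10 (Ephb4, a receptor of veins), 0.135 (Ephb6), 0.15 (Ephb1) and 0.215 (Ephb3). Features of 1 gene took both signs in Epha1 (from -0.445 to 0.35), Epha3 (from -0.39 to 0.35) and Ephb4 (-0.38 and 0.18).

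**Figure D3:**
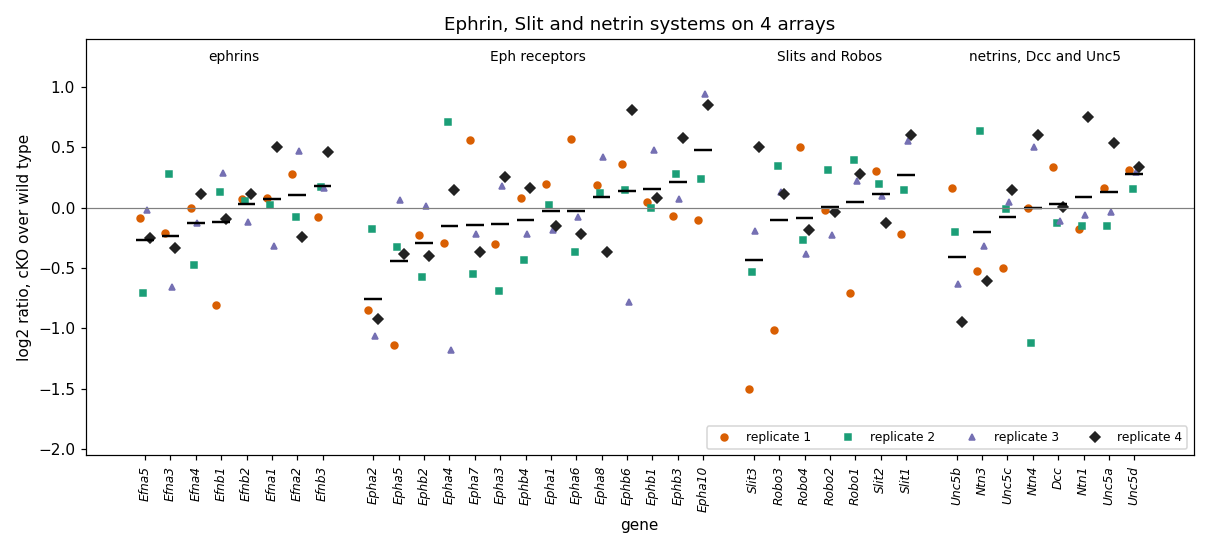
Log2 ratio of cKO over wild type (y axis) for each ephrin, Eph receptor, Slit, Robo, netrin, Dcc and Unc5 gene (x axis), with 1 point per array (shape and colour by replicate) and a bar for the mean of 4 arrays. All 4 points of Epha2 lie below 0, between -1.06 and -0.18, and those of Unc5d lie together between 0.155 and 0.34.

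Among Slits and Robos, replicate 1 held the value farthest from 0 in 5 of 7 genes, Slit2, Slit3, Robo1, Robo3 and Robo4. Replicate 1 had the widest spread over all genes too. The interquartile range of all genes was 0.66, 0.555, 0.51 and 0.585 on replicates 1 to 4. The share of all genes with replicate 1 farthest from 0 was not counted, so the 5 of 7 cannot be read as particular to this group. Slit3, one of the secreted Slit repellents, read -1.5, -0.53, -0.19 and 0.50 (mean -0.43 ± 0.83, SD, n = 4 arrays), and its fitted ratio of -0.74 became -0.14 without replicate 1. Robo3, which lets hindbrain commissural axons cross the midline, read -1.01, 0.35, 0.13 and 0.11. Robo1, a Slit receptor, read -0.71, 0.40, 0.22 and 0.28. In both Robo genes replicate 1 was negative and the other 3 arrays positive. Replicate 1 is also the array on which the hindbrain and spinal cord list had its median of 2.81, and the part of this in the Robo and Slit values was not tested.

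Slit2 read 0.305, 0.20, 0.095 and -0.13, and Robo2 -0.02, 0.31, -0.225 and -0.035, both with spans that include 0. The Robo2 features had means of 0.06 and -0.05. Slit1 had the highest mean of the group, 0.27 ± 0.38 (SD, n = 4 arrays), from -0.22, 0.15, 0.55 and 0.60. Robo4, which is expressed in endothelium, had a mean of -0.08, with features from -0.64 to 0.35. The medians of 13 endothelial and pericyte markers were -0.08, 0.09, -0.125 and -0.42 on replicates 1 to 4, with 2, 8, 4 and 4 of the 13 genes above 0. Those of Robo4 were 0.50, -0.27, -0.39 and -0.18. Limma called 0 of the 7 Slit and Robo genes at an adjusted p under 0.05 (0 at an unadjusted p under 0.05).

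In the netrin system, 4 of 8 genes had a mean above 0 and 4 below. No gene was called by limma at an adjusted p under 0.05, or reached an unadjusted p under 0.05. Ntn1, the attractant of precerebellar neurons, read -0.175, -0.15, -0.06 and 0.755, so 3 arrays lay just below 0 and replicate 4 alone lay above. Dcc, its attractive receptor, read 0.335, -0.125, -0.11 and 0.01 (mean 0.03 ± 0.21, SD, n = 4 arrays). The Dcc features had means of 0.28 under its own symbol and -0.23 under a clone name. Ntn3 and Ntn4, both netrin ligands, had means of -0.20 and -0.005, and Ntn4 ranged from -1.12 on replicate 2 to 0.60 on replicate 4.

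Unc5c, a netrin receptor whose loss in mice lets cerebellar granule cells stray into the brainstem, read -0.50, -0.01, 0.05 and 0.14. Its mean was -0.08 ± 0.29 (SD, n = 4 arrays), and its 3 features lay between -0.155 and 0.02. Unc5b, which is also expressed in vessels, had the lowest mean of the group, from 0.16, -0.20, -0.63 and -0.95. That mean was -0.405 ± 0.49 (SD, n = 4 arrays), and both features lay below 0, at -0.35 and -0.46. Unc5a had a mean of 0.13. Among the 4 Unc5 genes the order of means was Unc5d, Unc5a, Unc5c and Unc5b, and neighbours in this order differ by less than the SD of the wider of the pair.

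Features of the same gene gave a second view of the precision. Among the 34 members with 2 or more features, the features' means had 1 sign in 17 (50%), and the range between them had a median of 0.25. Over all 6704 genes with 2 or more features the share was 43.1% and the median range 0.28. Between the first and the second feature of a gene, the ratios of all genes correlated at 0.03, 0.01, 0.05 and 0.03 on replicates 1 to 4 (Pearson, across 6704 genes that share an array). For the 34 members the correlations were 0.13, -0.08, 0.001 and 0.22. Features of 1 gene thus shared little of their ratio on the same array. Between arrays, the 66 members correlated from -0.29 to 0.14, and all genes from -0.09 to 0.05.

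**Figure D4:**
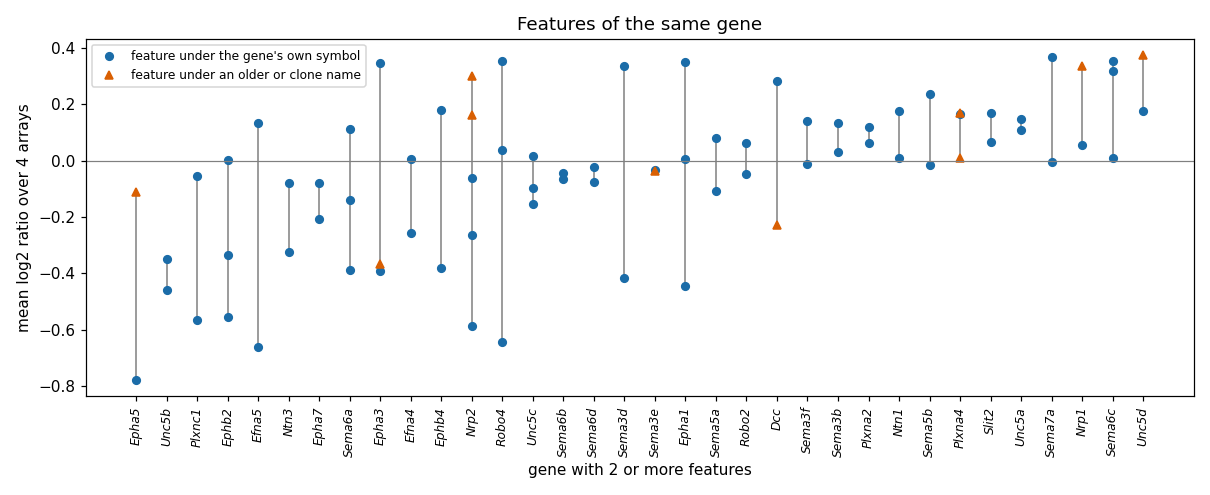
Mean log2 ratio over 4 arrays (y axis) of each feature of the 34 member genes with 2 or more features (x axis, ordered by gene mean), with circles for features under the gene's own symbol, triangles for features under an older or clone name and lines for the range. Features fall on both sides of 0 in 17 genes, with Nrp2 reaching from -0.59 to 0.30.

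The sign of the dye-flip arrays bears on every value. The 49 features that changed sign with the dye go with the signs as deposited, so the turned values serve as a check only. With replicates 2 and 4 turned, 4 members lay above 0 on all arrays (6.06%, against 6.37% of all genes) and 2 below (3.03%, against 6.87%). Above were Efna2, Nrp1, Sema4a and Sema4g, and below were Epha4 and Sema3b. Limma called 0 members in that setting, and 0 reached an unadjusted p under 0.05. The fitted ratio changed sign in 23 of 66 members. The fitted ratio of Epha2 stayed below 0, at -0.58, because replicate 4 has no weight in it and replicate 2 was near 0. On the turned arrays themselves Epha2 lay above 0 on 2 and below 0 on 2.

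Some guidance genes are neighbours on a chromosome, with no other protein-coding gene between them in RefSeq. Efna1, Efna3 and Efna4 form such a run, with means of 0.07, -0.23 and -0.12. Robo1 and Robo2 are adjacent, with means of 0.05 and 0.01, as are Robo3 and Robo4, at -0.105 and -0.08. Sema3a and Sema3d are adjacent too, at 0.11 and -0.04. Each of these means was smaller in size than its SD over the 4 arrays.

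Other genes of the pathway were counted in 3 lists. All 25 listed co-receptors and adhesion partners were measured, and limma called 0 at an adjusted p under 0.05 (0 at an unadjusted p under 0.05). Their median fitted ratio was 0.02. The lowest p belonged to Cntn4, a contactin, with -0.32, -0.52, -0.21 and -0.24 (fitted ratio -0.35, 95% interval -0.84 to 0.13). Of 60 listed cytoplasmic effectors 56 were measured and 0 were called (0 at an unadjusted p under 0.05). Among these, 37 had a mean below 0 and 19 above (33.9%, against 49.6% of all genes). The median mean was -0.04, and the median fitted ratio was -0.09. On replicates 1 to 4, 24, 26, 25 and 30 of the 56 lay above 0. The effector counts were not tested. Pak2, a protein kinase of the cytoskeleton, had the lowest p, with -1.11, -0.05, -0.53 and -0.35 (fitted ratio -0.56, 95% interval -1.31 to 0.19). Of 28 listed genes of other ligand and receptor families 25 were measured and 0 were called (0 at an unadjusted p under 0.05), with a median fitted ratio of -0.04. Rtn4rl2, a receptor of myelin inhibitors, had the lowest p there, with 0.29, -1.88, -0.40 and 0.03 (fitted ratio -0.66, 95% interval -1.70 to 0.37). Replicate 2 held its lowest value by far, and replicates 1 and 4 lay above 0.

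Markers of granule cells and their progenitors had a median below 0 on every array. It was -0.18, -0.26, -0.38 and -0.64 on replicates 1 to 4. All 15 measured genes had a mean below 0, where 49.6% of all genes had a mean above 0. The fitted ratio was below 0 in 14 of the 15, and Atoh1 was the exception at 0.17. With the dye-flip arrays turned, against the direction taken here, the medians would be -0.18, 0.26, -0.38 and 0.64, with 6 of 15 means below 0. Limma called 0 of the 15 at an adjusted p under 0.05 (3 at an unadjusted p under 0.05, where 1.56% of all genes lay). The array medians of the guidance genes lay between -0.0475 and 0.11. The part of the granule cell markers in single guidance genes was not tested. Medians of 12 Purkinje cell markers were -0.17, 0.06, 0.04 and 0.16.

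**Figure D5:**
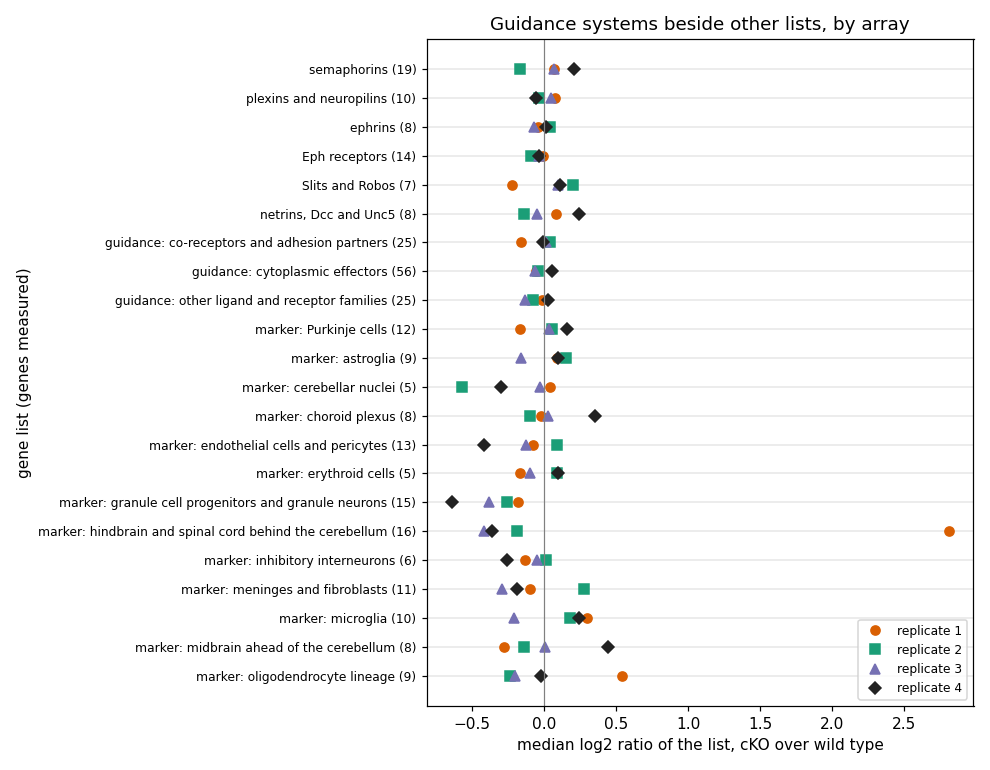
Median log2 ratio of cKO over wild type (x axis) on each array (shape and colour by replicate) for the 6 guidance groups, 3 other guidance lists and the cell type marker lists (y axis, with the number of genes measured). Guidance groups lie within 0.25 of 0 on every array, granule cell markers lie below 0 on all 4 as deposited, and the hindbrain and spinal cord list reaches 2.81 on replicate 1.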

How the data were processed

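Per the labels' protocols, Trizol was used to extract RNA, and cDNA was labelled with a dendrimer kit. The authors deposited 1 log2 ratio per feature and array, with the log base taken here as 2 because ratios of this size in base 10 would exceed a scanner's range; a natural log is possible. Normalization and background steps remain not given in the sources used here, and dim features could not be filtered without scanner intensities.

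The platform annotation gave 1 symbol to 30457 of 38880 features and none to 8423. Of 21476 symbols, 13021 were current in RefSeq (GRCm38.p6, letter case ignored), 8291 were replaced through a synonym of 1 gene and 164 were kept. Each array's ratios had its median subtracted (0.01, 0, 0.01 and -0.02), and features of 1 current name were averaged, which gave 19875 genes. Of the members' features 12 were matched through a current name, Plxna4os1 included.

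In R 4.3.3, limma 3.58.1 with lmFit and eBayes tested (two-sided) an intercept against 0, with a correlation of 0.5 between arrays that share an RNA sample and Benjamini-Hochberg adjustment over all genes. The script was tested on simulated data. With 3 RNA samples a genotype, each p-value mixes biological and technical spread.

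Members, lists and tests were chosen with earlier results of these data known. Array values were printed for members with an unadjusted p under 0.05, with 1 sign on all arrays, with the highest or lowest mean of a group, and for 20 genes with a known part in the cerebellum. In a few other members array values were added after they were seen. The alternatives were independent arrays, turned dye-flip arrays, no centring, scaling to 1 spread, median of features, symbols as given, single features, a dye term and leaving out each replicate.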

Additional observations from a re-analysis of the deposited data

Results flagged for a closer look

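For 9 of 103 values examined, 1 array stood apart because its gap to the nearest of the others was larger, as a share of the whole range, than Dixon's 95% critical value. Chance gives about 5.15 such values, and 6 of the 9 belonged to the 66 members. Replicate 4 stood apart in Ntn1, at 0.755 with the others between -0.175 and -0.06. It also did so in the median of the 3 netrin genes, at 0.60 with the others between -0.175 and -0.06, and in Sema7a, at 0.745 with the others between -0.05 and 0.05. Replicate 1 stood apart in Robo1 at -0.71, where the others lay between 0.22 and 0.40, and in Sema3d at -0.645, where they lay between 0.07 and 0.21. In Sema5b replicate 1 read 0.32 and the others at most 0.055. In Ephb1 replicate 3 read 0.48 and the others between 0 and 0.08. The median of cytoplasmic effectors reached 0.0525 on replicate 4, while the other arrays gave -0.063 to -0.043. The median of hindbrain and spinal cord genes reached 2.81 on replicate 1, while the other arrays gave -0.415 to -0.19.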

How the results depend on the processing

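The count of called genes was 0, over all genes and over members, under every alternative run. At an unadjusted p under 0.05 there were 311 genes, of which 1 was a member. With arrays fitted as independent there were 994 genes and 2 members, and with a dye term 1004 genes and 2 members. With the dye-flip arrays turned 0 members remained under that limit. Leaving out an array gave 0 to 1 members and 139 to 937 genes, the lowest without replicate 2, the highest without replicate 4, and 0 members without replicate 1. Members with 1 sign on all arrays numbered 4. There were 7 with symbols as given, where older and clone names count as entries of their own, and 13 among the 111 single features. When an array was left out, so that 3 arrays must match, there were 12 to 15. No share of all genes or features was counted beside the 7, the 13 or the 12 to 15. The median ratio of the members was -0.03167, and 0.06333 with the dye-flip arrays turned. The cause of these differences was not tested. Fitted ratios changed sign in 28 of 66 members without replicate 1, in 22 without replicate 3, in 13 without replicate 2, and in 10 with independent arrays or a dye term. No member's ratio was available from single features, and Epha10 had none with symbols as given. Without intensities, what signal over background limits was not measured.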
